A study of Mus musculus with 15 samples.

Results

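Mouse embryonic fibroblasts (MEFs) lost the transcripts of 13 genes to at most 25% of the starting level, whether or not they were given the adipogenic drugs. The 13 genes were selected on their values: a mean of at least 5 CPM (counts divided by the sample's total, times 1000000) in the starting cells, and at least 4 times the mean of each later group. RNA-Seq counts came from 15 samples in 5 groups of 3, numbered 1, 3 and 4 in each group. The cells were wild-type BALB/c MEFs from embryos of 10.5 days. The introduction of the paper describes MEFs as coming from older embryos of another strain, and its methods state neither. MEFD0 was harvested at day 0. MEFD3plu received rosiglitazone (10 µM), dexamethasone (1 µM), insulin (10 µg/mL) and the phosphodiesterase inhibitor IBMX (0.5 mM) for 3 days, and MEFD5plu then went back to growth medium until day 5, while MEFD3min and MEFD5min were kept without the drugs. Values given as with drugs at day 5 are those of MEFD5plu, which had no drugs after day 3. Total counts per sample lay between 24030558 and 37281126. The labels do not say whether the replicates are separate cultures, so the p-values measure the spread among these samples.

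Fibroblasts in culture adjust adhesion, cytoskeleton, matrix and growth programmes as they crowd, and adipogenic drugs are given on top of this change. IBMX raises cAMP by blocking its breakdown, dexamethasone activates the glucocorticoid receptor and rosiglitazone activates PPARγ. A gene that is low in every later group was low both with and without them.

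Of 46603 genes in the files, 10163 had at least 5 CPM in MEFD0, and 13 of these (0.128%) were at least 4 times lower in all 4 later groups. In single groups the counts were 357 genes (3.51%) for MEFD3min, 585 (5.76%) for MEFD3plu, 34 (0.335%) for MEFD5min and 177 (1.74%) for MEFD5plu. MEFD5min was therefore the group that limited the set, and 56 further genes met the rule in every later group except MEFD5min. Both untreated groups were at least 4 times below MEFD0 for 22 genes, and the 13 genes made up 59.1% of them. Both treated groups were that low for 120 genes, of which the 13 made up 10.8%. A bulk measurement cannot tell fewer cells of a type from less RNA per cell. Time in culture, cell density and changes of medium since day 0 also cannot be told apart here.

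The 13 genes were Selp, L1cam, Megf10, S100a4, Nav2, Ngef, Inka2, Pcolce2, Chst1, Sytl2, Serpinb8, Adcy1 and Rragb. By what their products are known to do, they cover cell surface recognition, the cytoskeleton, collagen and glycan processing, vesicle docking and protease control, and cAMP and amino acid signalling. The median share of the MEFD0 mean that was left was 8.26% and 16.1% without drugs (MEFD3min and MEFD5min) and 8.05% and 7.31% with drugs (MEFD3plu and MEFD5plu). For all 10163 genes the same medians were 87.0% and 93.5% without and 91.8% and 84.1% with drugs. The rule fixed this contrast in advance, since it capped each of the 13 genes at 25% in every later group. It capped the later sums that follow in the same way. Summed over the 13 genes, MEFD0 samples held 515 to 523 CPM, MEFD3min 51.4 to 57.2, MEFD3plu 26.6 to 32.5, MEFD5min 69.9 to 92.8 and MEFD5plu 57.5 to 67.6. S100a4 carried much of this sum in MEFD5plu, where the other 12 genes held 29.0 to 30.6 CPM. None of the 13 was silent, since the lowest count in any later sample was 5, for Ngef in MEFD3plu. MEFD3plu was the lowest group for 9 of the 13 genes, MEFD5plu for 3 and MEFD3min for 1.

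**Figure D1:**
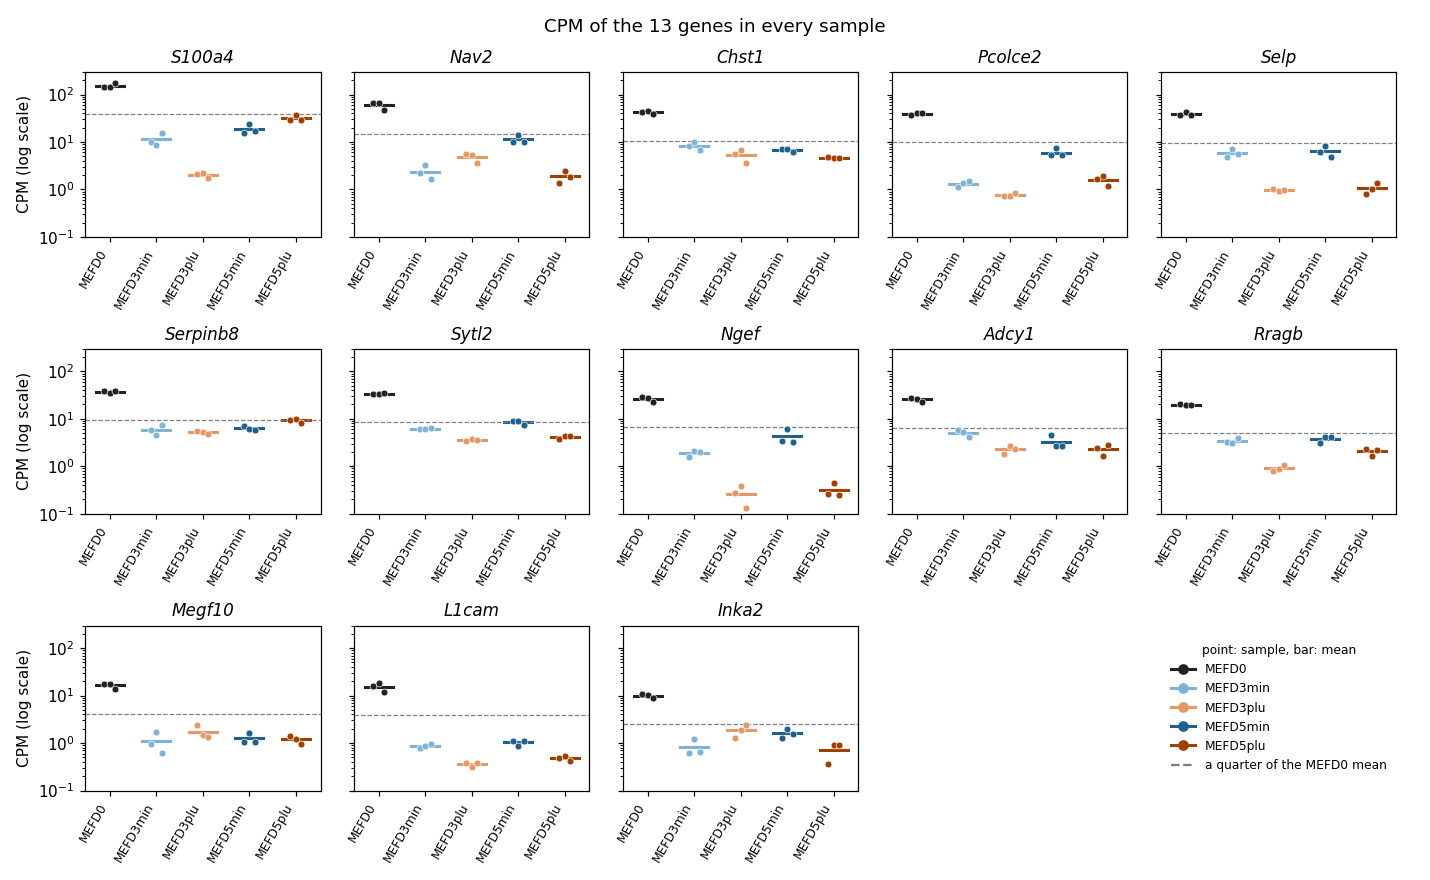
CPM per sample (log axis) of the 13 genes in the 5 groups, with a bar at each group's mean and a dashed line at 25% of the MEFD0 mean, the limit set by the rule. The means of the later groups lie under the line in every panel, most closely for Sytl2 in MEFD5min and Serpinb8 in MEFD5plu.

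Cell surface recognition was represented by 3 receptors of different kinds. Selp (ENSMUSG00000026580, chr1:164115264-164150026, plus strand, GRCm38) encodes P-selectin, a lectin that platelets and endothelial cells display to capture leukocytes. It was at 36.8, 42.7 and 37.1 CPM in the MEFD0 samples. Without drugs it was at 4.71, 7.05 and 5.71 CPM on day 3 and at 6.11, 8.20 and 4.87 CPM on day 5. With drugs it was lower still, at 1.03, 0.943 and 0.966 CPM on day 3 and 0.819, 1.04 and 1.38 CPM on day 5, so that 2.52% and 2.78% of the starting mean were left against 14.99% and 16.4% without drugs. L1cam (ENSMUSG00000031391, chrX:73853778-73896105, minus strand) encodes a homophilic adhesion molecule of the immunoglobulin family, known for neurite growth and for motility of other cells. Its MEFD0 values were 16.3, 18.5 and 11.8 CPM, and its later values lay between 0.314 and 1.11 CPM, which left 6.63% or less of the starting mean in each group. Its smallest ratio to a later group, 15.1, was the widest margin of the 13 genes. Megf10 (ENSMUSG00000024593, chr18:57133090-57297467, plus strand) encodes an engulfment receptor with EGF-like repeats that glia and muscle satellite cells use. It stood at 16.3 ± 2.15 CPM (SD, n = 3) in MEFD0 and between 1.10 ± 0.563 and 1.72 ± 0.600 CPM in the later groups. No comparison of later groups passed the threshold in the main fit. With the replicate number as a block, MEFD3plu was higher than MEFD3min (edgeR, adjusted p = 0.0477).

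S100a4 and Nav2 act on the cytoskeleton. S100a4 (ENSMUSG00000001020, chr3:90603771-90606045, plus strand) encodes a small calcium-binding protein that disassembles non-muscle myosin filaments and is used as a marker of motile fibroblasts. It was at 144, 142 and 179 CPM in MEFD0. Untreated samples held 10.2, 8.60 and 15.7 CPM on day 3 and 15.2, 23.9 and 16.8 CPM on day 5. Treated samples went from 2.14, 2.20 and 1.77 CPM on day 3, 1.32% of the start, to 29.1, 36.99 and 28.5 CPM on day 5, 20.4% of the start. Nav2 (ENSMUSG00000052512, chr7:48908716-49610090, plus strand) encodes neuron navigator 2, which binds microtubule ends and takes part in cell extension. From 65.8, 66.5 and 47.4 CPM in MEFD0 it was at 2.23, 3.27 and 1.63 CPM in MEFD3min and 5.58, 5.31 and 3.57 CPM in MEFD3plu. On day 5 the order was the opposite, with 10.1, 13.9 and 9.84 CPM in MEFD5min and 1.38, 2.47 and 1.83 CPM in MEFD5plu.

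Ngef and Inka2 act in signalling from the cell surface and from kinases. Ngef (ENSMUSG00000026259, chr1:87476834-87573870, minus strand) encodes ephexin-1, which acts downstream of EphA receptors. It was at 28.9, 27.0 and 23.1 CPM in MEFD0. Its treated groups kept the smallest share of the starting mean among the 13 genes, 0.996% on day 3 and 1.21% on day 5, at 0.276, 0.377 and 0.134 CPM in MEFD3plu and 0.254, 0.446 and 0.253 CPM in MEFD5plu, from 5 to 15 counts per sample. Untreated samples held 1.54, 2.08 and 2.04 CPM on day 3 and 3.46, 6.08 and 3.17 CPM on day 5. Inka2 (ENSMUSG00000048458, chr3:105704599-105720842, plus strand) encodes an inhibitor of the kinase PAK4. It was at 10.8, 10.4 and 8.86 CPM in MEFD0. Later values were 0.628, 1.19 and 0.658 CPM in MEFD3min against 1.31, 1.85 and 2.41 CPM in MEFD3plu, and 1.25, 1.997 and 1.58 CPM in MEFD5min against 0.367, 0.893 and 0.927 CPM in MEFD5plu. Like Nav2, it was higher in MEFD3plu than in MEFD3min and lower in MEFD5plu than in MEFD5min.

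Collagen and glycan processing were represented by a procollagen enhancer and a sulfotransferase. Pcolce2 (ENSMUSG00000015354, chr9:95637601-95698096, plus strand) encodes a secreted protein that helps BMP1-type proteinases remove the C-propeptide of fibrillar procollagens. It was at 37.3, 39.9 and 40.8 CPM in MEFD0, at 1.13, 1.33 and 1.505 CPM in MEFD3min and at 0.724, 0.723 and 0.832 CPM in MEFD3plu. Part of it came back by day 5 without the drugs, at 5.38, 7.28 and 5.25 CPM, and less with them, at 1.69, 1.90 and 1.21 CPM. Chst1 (ENSMUSG00000027221, chr2:92599707-92615250, plus strand) encodes a Golgi enzyme that sulfates galactose in keratan sulfate. It was at 41.9 ± 2.90 CPM in MEFD0, and 19.7%, 12.6%, 16.2% and 11.1% of this were left in turn in the 3-day groups (untreated, treated) and the 5-day groups (untreated, treated).

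Vesicle docking and protease control gave the members closest to the limit of the rule. Sytl2 (ENSMUSG00000030616, chr7:90302252-90410719, plus strand) encodes an effector of Rab27 that docks secretory vesicles at the plasma membrane. It was at 33.8 ± 0.473 CPM in MEFD0, 6.19 ± 0.153 and 8.45 ± 0.871 CPM in MEFD3min and MEFD5min, and 3.56 ± 0.190 and 4.12 ± 0.295 CPM in MEFD3plu and MEFD5plu. Serpinb8 (ENSMUSG00000026315, chr1:107590006-107610484, plus strand) encodes an intracellular serpin that inhibits furin and related proteases. It was at 36.97 ± 1.54 CPM in MEFD0, at 5.90 ± 1.36 and 6.28 ± 0.637 CPM in MEFD3min and MEFD5min, and at 5.21 ± 0.426 and 9.21 ± 0.867 CPM in MEFD3plu and MEFD5plu. Both genes fall out of the set when library sizes are scaled by TMM or by DESeq2 size factors, which leaves 11 genes.

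cAMP and nutrient signalling each contributed one gene. Adcy1 (ENSMUSG00000020431, chr11:7063489-7178506, plus strand) encodes an adenylyl cyclase that calcium and calmodulin stimulate, best known from neurons. It was at 25.6 ± 2.40 CPM in MEFD0, 5.08 ± 0.833 and 3.28 ± 1.04 CPM in MEFD3min and MEFD5min, and 2.26 ± 0.438 and 2.29 ± 0.618 CPM in MEFD3plu and MEFD5plu. Rragb (ENSMUSG00000041658, chrX:153139981-153171943, plus strand) encodes one of the Rag GTPases that bring mTORC1 to the lysosome when amino acids are present. It was at 20.3, 19.7 and 19.6 CPM in MEFD0 and at 3.17, 3.08 and 3.98 CPM in MEFD3min. MEFD3plu held 0.793, 0.880 and 1.05 CPM, the lowest of the later groups for this gene, and the day 5 groups held 3.05, 4.08 and 4.23 CPM without and 2.34, 1.61 and 2.25 CPM with the drugs.

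The comparison of treated with untreated cells asks what the drugs added to a decrease that occurred without them. It does not use MEFD0, but the rule gives both groups an upper limit of 25% of the MEFD0 mean. At day 3, 9 of the 13 genes were lower in MEFD3plu and 2 higher (edgeR, adjusted p under 0.05). Among all 15997 genes tested, 28.0% were higher and 28.0% lower, against 69.2% lower of the 13. Because the rule used the means of both groups, no lean is read from these shares, and the difference was not tested. The median log2 fold change was -0.82 for the 13 genes and -0.001 for all genes. Ngef fell by 2.89 ± 0.357 (log2, SE, adjusted p = 2.49e-06), Selp fell by 2.59 ± 0.224 (adjusted p = 3.03e-08), S100a4 fell by 2.53 ± 0.249 (adjusted p = 1.55e-07) and Rragb fell by 1.92 ± 0.206 (adjusted p = 4.68e-07), with all 3 treated samples under all 3 untreated samples for each of these 4 genes. L1cam, Adcy1, Sytl2 and Pcolce2 fell by 1.30, 1.18, 0.82 and 0.81 with groups that did not overlap. Chst1 fell by 0.67 ± 0.163 (adjusted p = 0.00195), although its highest treated sample lay above its lowest untreated one.

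Higher in MEFD3plu were Inka2, with a log2 fold change of 1.15 ± 0.330 (adjusted p = 0.00675), and Nav2, with 0.98 ± 0.248 (adjusted p = 0.00282), in 3 of 3 treated samples against every untreated one. Even so, MEFD3plu held 18.6% and 8.04% of their MEFD0 means. Serpinb8 (-0.20 ± 0.155, adjusted p = 0.281) and Megf10 (0.60 ± 0.309, adjusted p = 0.111) passed no threshold, with overlapping groups. The interval for Megf10 ran from -0.054 to 1.25, and with the replicate number as a block, its value was 0.63 ± 0.264 (adjusted p = 0.0477), which raises the count from 11 to 12. Megf10 also passed with no filter (adjusted p = 0.0475). Without MEFD3min replicate 3 both genes passed, Serpinb8 at -0.38 (adjusted p = 0.0281, range over the alternatives 0.0281 to 0.970) and Megf10 at 1.08 (adjusted p = 0.00633, range 0.00633 to 0.447). All 13 genes were then called. This library stood apart from its group. Chi-squared per degree of freedom over all genes was 51.1 against replicate 1 and 125 against replicate 4, the highest of all pairs, and 29.3 between replicates 1 and 4.

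At day 5, when the drugs had been withdrawn, 8 of the 13 genes were lower in MEFD5plu and 2 higher, against 24.2% lower and 26.3% higher among all genes. The median log2 fold change was -0.87 for the 13 genes and 0.01 for all genes. As at day 3, the rule used the means of both groups, so no lean is read from these values. The difference was not tested. Ngef fell by 3.54 ± 0.314 (adjusted p = 9.75e-08), Nav2 fell by 2.40 ± 0.243 (adjusted p = 4.58e-07), Selp fell by 2.38 ± 0.219 (adjusted p = 1.44e-07) and Pcolce2 fell by 1.72 ± 0.171 (adjusted p = 3.71e-07), each in 3 of 3 treated samples. Selp, Ngef, Pcolce2, Sytl2, Rragb and L1cam were thus lower in the treated group at both days. Sytl2, Rragb and L1cam fell by 0.87, 0.71 and 0.96. Inka2 fell by 0.96 ± 0.342 (adjusted p = 0.0271), but missed the threshold without MEFD5min replicate 3 (adjusted p = 0.0919) or without MEFD5plu replicate 1 (adjusted p = 0.127), the range over its alternatives being 0.00242 to 0.127. S100a4 was higher by 0.93 ± 0.199 (adjusted p = 0.00089) and Serpinb8 by 0.71 ± 0.149 (adjusted p = 0.000788), each in 3 of 3 treated samples. Chst1 (-0.37 ± 0.166, adjusted p = 0.0715), Adcy1 (-0.36 ± 0.229, adjusted p = 0.204) and Megf10 (0.12 ± 0.319, adjusted p = 0.780) did not pass, and the 2 groups did not overlap for Chst1. Chst1 passed in 10 of 23 alternatives, among them DESeq2 (adjusted p = 0.0315) and the fit of the compared samples alone (adjusted p = 0.0299), in a range of 0.0203 to 0.188. Leaving out MEFD3min replicate 3, MEFD3plu replicate 3 or 4 or MEFD5min replicate 4 was enough (adjusted p = 0.0499, 0.0427, 0.0296 and 0.0392). With library sizes taken from total counts alone the median of all genes moved to -0.152 in this comparison. Of 15997 genes, 5231 were then lower and 3072 higher, against 3870 and 4210 with TMM, and 9 of the 13 genes were lower and 2 higher.

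**Figure D2:**
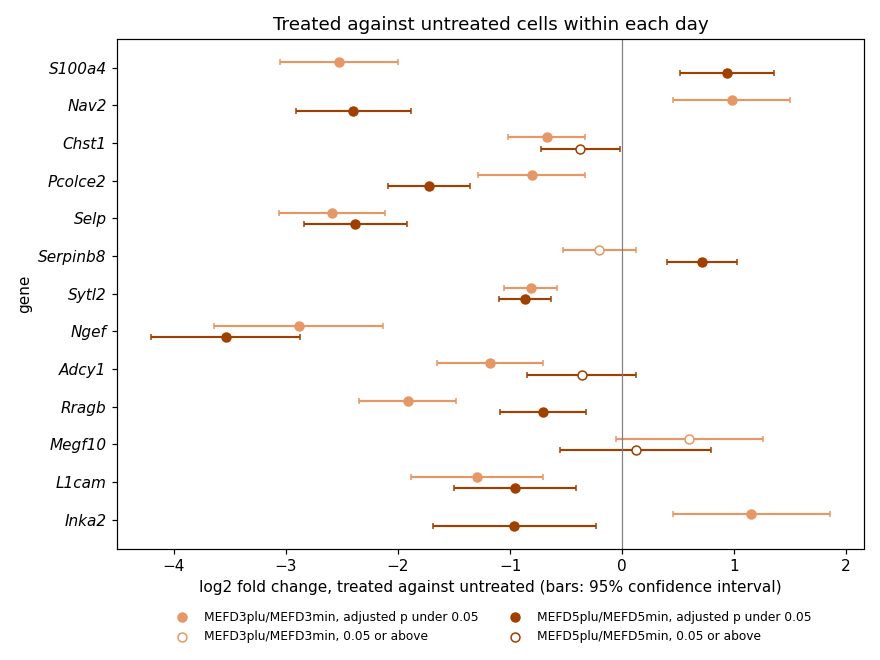
Log2 fold change of treated against untreated cells for the 13 genes at day 3 (MEFD3plu/MEFD3min) and day 5 (MEFD5plu/MEFD5min), with 95% confidence intervals from edgeR; filled points have an adjusted p under 0.05. S100a4 lies at -2.53 and 0.93, Nav2 at 0.98 and -2.40 and Inka2 at 1.15 and -0.96, on opposite sides of 0 at the 2 days.

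Days 3 and 5 were compared within each treatment to see whether any of the decrease was undone. Without drugs, 5 of the 13 genes were higher in MEFD5min than in MEFD3min and 1 lower, against 21.3% higher and 21.5% lower among all genes. These shares are 3400 and 3445 of 15997 genes with TMM. With total counts alone they were 4302 higher and 2564 lower, with 6 and 1 of the 13 genes. The rule used the means of both groups here too, so no lean is read, and the difference was not tested. Nav2 was higher by 2.12 ± 0.237 (adjusted p = 1.62e-06), Pcolce2 by 2.06 ± 0.177 (adjusted p = 7.41e-08) and Ngef by 1.03 ± 0.240 (adjusted p = 0.00223), in 3 of 3 day 5 samples each. These 3 genes reached 18.8%, 15.2% and 16.1% of MEFD0 in untreated culture at day 5. Sytl2 was higher by 0.34 ± 0.106 (adjusted p = 0.0153) in 3 of 3 samples, S100a4 by 0.57 ± 0.205 (adjusted p = 0.0321) with overlapping groups, and Adcy1 fell by 0.72 ± 0.215 (adjusted p = 0.0122) with overlapping groups.

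These last 3 calls depended on single libraries and on settings, and all 3 were lost with a threshold of 0.01 or a required 2-fold change. S100a4 had an adjusted p of 0.123, 0.136 and 0.174 without MEFD3min replicate 1, MEFD3min replicate 3 and MEFD5min replicate 3, and 0.0975 in the fit of the compared samples alone, in a range of 5.47e-05 to 0.174 over its alternatives. Adcy1 had 0.0553 without MEFD5min replicate 3 and 0.0663 without MEFD5min replicate 4 (range 8.82e-05 to 0.0663). Sytl2 had 0.0583 without MEFD3min replicate 1 and 0.0592 without MEFD5min replicate 1, 0.145 with no filter and 0.0982 in the fit of the compared samples alone (range 0.00233 to 0.145).

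Inka2 and Chst1 lay near the threshold of the same comparison. Inka2 was at 0.83 ± 0.338 (adjusted p = 0.0581), higher in 3 of 3 day 5 samples, and passed in 9 of 23 alternatives (range 0.0168 to 0.189). Among these were the fits without MEFD3min replicate 3, MEFD3plu replicate 1 or 4, MEFD5min replicate 1 and MEFD5plu replicate 1 (adjusted p = 0.0168, 0.0488, 0.0472, 0.0456 and 0.0333). Chst1 was at -0.39 ± 0.160 (adjusted p = 0.0625) with overlapping groups and passed in 6 of 23 (range 0.0157 to 0.249), among them the fits without MEFD3min replicate 4 and MEFD3plu replicate 3 or 4 (adjusted p = 0.0205, 0.0368 and 0.0252).

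With drugs, 5 genes were higher in MEFD5plu than in MEFD3plu and 2 lower, which is 38.5% and 15.4% of the 13, near the 33.8% higher and somewhat under the 29.2% lower among all genes. Again no lean is read from these shares, as the rule used both means. S100a4 was higher by 4.04 ± 0.245 (adjusted p = 5.00e-10), 16.4-fold, in 3 of 3 samples. Rragb was higher by 1.25 ± 0.215 (adjusted p = 8.24e-05), Pcolce2 by 1.14 ± 0.218 (adjusted p = 0.000234) and Serpinb8 by 0.90 ± 0.151 (adjusted p = 6.34e-05), in 3 of 3 samples each. Sytl2, higher by 0.29 ± 0.115 (adjusted p = 0.0359), passed in 10 of 23 alternatives. Inka2 fell by 1.29 ± 0.335 (adjusted p = 0.00298) and Nav2 fell by 1.26 ± 0.254 (adjusted p = 0.000385), in 3 of 3 samples each. Selp, L1cam and Ngef passed no threshold from day 3 to day 5 with drugs, with log2 fold changes of 0.22, 0.50 and 0.38 (adjusted p = 0.496, 0.166 and 0.511).

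A test of the difference between both treatment effects passed the threshold for 7 of the 13 genes, 3 (23.1%) with a higher and 4 (30.8%) with a lower log2 fold change at day 3 than at day 5, near the 22.6% and 25.8% of all genes. S100a4 (-3.46 ± 0.320, adjusted p = 1.97e-07) and Nav2 (3.38 ± 0.347, adjusted p = 6.63e-07) had the widest differences, and the others were Inka2, Rragb, Pcolce2, Serpinb8 and Adcy1. Adcy1 (-0.82 ± 0.320, adjusted p = 0.0444) passed in only 7 of 23 alternatives (range 0.00551 to 0.138), so that most alternatives gave 6 genes or fewer. Pcolce2 (0.91 ± 0.289, adjusted p = 0.0150) missed the threshold without MEFD3plu replicate 4 (adjusted p = 0.0528, range 0.00421 to 0.0528). The treatment effect on S100a4 and Nav2 thus had opposite signs at day 3 and day 5, in 3 of 3 treated samples at each. MEFD5plu had been without the drugs since day 3, so time and drug withdrawal cannot be told apart. For Selp, the difference was -0.21 ± 0.325 (adjusted p = 0.630), and for Ngef 0.65 ± 0.552 (adjusted p = 0.352). The balance over all genes turned with total counts alone, to 4736 higher and 3220 lower of 15997, against 3622 and 4132 with TMM. The 13 genes then gave 3 higher and 3 lower.

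Relatives of the 13 genes were examined with the members left out. A relative that met the whole rule would itself be a member, so none could do so. The 13 families held 96 relatives, 35 of them with at least 5 CPM in MEFD0. Of these 35, 28 were at least 4 times lower in no later group and 7 (20% of the 35) in 1 to 3 groups, against 736 of all 10163 genes (7.24%) in at least 1 group. The families were chosen after the members were known, and the difference was not tested. The 7 were S100a6, Sele, Rab27b, Chst7 and the clade B serpin genes Serpinb2, Serpinb6a and Serpinb9b, all of them that low in MEFD3plu and 0 in MEFD5min. Several others were lower by less, such as S100a11 with 29.6% and Adcy7 with 34.7% of the MEFD0 mean left in MEFD3plu, and Rragc with 36.9% left in MEFD5plu. Nav1, another navigator, was at 94.1 ± 14.1 CPM in MEFD0 and between 53.3 ± 8.69 and 160 ± 66.8 CPM later, and Nav3 was at 47.1 ± 6.21 CPM in MEFD0 and between 24.9 ± 5.50 (52.7% left, in MEFD3min) and 92.0 ± 14.1 CPM later. Pcolce, the other procollagen enhancer, was at 388 ± 28.7 CPM in MEFD0 and 404 ± 32.2 CPM or more later, and the proteinase Bmp1 that both assist was at 137 ± 14.7 CPM in MEFD0 and 135 ± 14.5 CPM or more later. Rraga, which can take the place of Rragb in the Rag heterodimer, was at 93.4 ± 6.87 CPM in MEFD0 and between 84.5 ± 5.70 and 119 ± 5.78 CPM later. Of the other cyclases, Adcy6 kept 78.0% or more and Adcy8 30.9% or more of their MEFD0 means, 65.4 ± 3.62 and 95.3 ± 9.73 CPM. Inka1 went the other way, from 8.12 ± 1.14 CPM in MEFD0 to 21.5 ± 2.07 CPM or more later. Pak4, the target of both INKA proteins, kept 53.8% or more of its starting mean in each later group.

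Other relatives followed part of the pattern. Sele, the E-selectin gene beside Selp, was at 21.7 ± 3.13 CPM in MEFD0, 30.2 ± 1.53 in MEFD3min and 2.07 ± 0.575 in MEFD3plu, and it was at least 4 times lower in no group but MEFD3plu. S100a6, next to S100a4, was at 2623 ± 319 CPM in MEFD0 and 529 ± 55.9 CPM in MEFD3plu, with 57.6% or more left in each other later group. Rab27b, which recruits Sytl2 to vesicles, was at 14.0 ± 0.953 CPM in MEFD0 and at least 4 times lower in 3 later groups, with 50.2% left in MEFD5min. Serpinb9b was likewise that low in 3 later groups, with 36.7% left in MEFD5min. The relatives named here were picked after their values were seen.

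Functions of the starting cells were also sought with 32 lists of marker and pathway genes, of which 31 held none of the 13 genes. The fibroblast list held S100a4, and the other 12 genes were on no list. The other fibroblast genes took different courses. Of 13 on the list with at least 5 CPM, 3 were at least 4 times lower in MEFD3plu (S100a4, Thy1 and Vim) and 1, S100a4, in each other later group. The transcription factor gene Prrx1 was at 477 ± 32.0 CPM in MEFD0 and 371 ± 8.87 CPM or more later, Twist1 at 37.2 ± 1.63 CPM and 31.1 ± 1.54 CPM or more, and Pdgfra at 132 ± 9.05 CPM and 252 ± 17.2 CPM or more. Col3a1 and Dcn were higher in every later group, Dcn from 16.2 ± 2.06 CPM in MEFD0 to 443 ± 60.5 CPM or more. Vim was at 6939 ± 698 CPM in MEFD0 and at 1113 ± 70.8 CPM in MEFD3plu, and Fbln2 at 924 ± 149 CPM in MEFD0 and 303 ± 56.8 CPM in MEFD5plu. Selp and L1cam are known from endothelial and neural cells, and the lists for these types gave mixed values in MEFD0. Pecam1 was at 0.0712 CPM and Kdr at 0.163 CPM in MEFD0, Cldn5 and Sox17 had no counts in any sample, and 2 of the 16 endothelial genes, Flt1 and Eng, reached 5 CPM. Flt1 was at 17.0 ± 2.04 CPM in MEFD0 and at least 4 times lower in every later group but MEFD5min, while Eng was at 5.13 ± 0.885 CPM in MEFD0 and 10.3 ± 1.95 CPM or more later. Emcn, at 0.0290 ± 0.0295 CPM in MEFD0, was at 5.44 ± 0.568 CPM or more later. Neurog2, Rbfox3, Olig2 and Sox10 had no counts either, while 7 of the 28 neural and glial genes reached 5 CPM, among them Nes at 260 ± 31.6 CPM, Nefl at 127 ± 8.18 CPM and Ncam1 at 73.5 ± 11.5 CPM. In MEFD3plu 4 of these 7 were at least 4 times lower (3 with TMM scaling), in MEFD3min 1 and in the day 5 groups 0. Map2 went from 34.8 ± 2.15 CPM in MEFD0 to 17.1 ± 1.80 CPM or less in each later group and Tubb3 from 8.38 ± 0.348 CPM to 2.97 ± 0.265 CPM or less, whereas Ncam1 and Isl1 had higher means in each later group than in MEFD0. Nefl was at 30.5 CPM in MEFD3plu but at 212 ± 13.2 CPM or more in each other later group. Gap43, at 28.4 ± 1.53 CPM in MEFD0, was at 3.77 ± 0.198 CPM in MEFD3plu and at 44.7 ± 2.01 CPM or more in each other later group. No gene of the blood and macrophage, striated muscle or epithelial lists reached 5 CPM in MEFD0.

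Genes for cell division were low at day 3 in both treatments, but higher again at day 5, and none is among the 13. Of 28 genes for G2/M and mitosis, 26 were at least 4 times lower in MEFD3min and 28 in MEFD3plu, but 0 in MEFD5min and 1 in MEFD5plu. Of 27 genes for S phase and replication, the numbers were 20, 20, 0 and 2, and with TMM scaling 16, 16, 0 and 1. Summed CPM of the G2/M list were 5147 ± 94.3 in MEFD0, 1007 ± 90.1 and 957 ± 22.6 at day 3 (MEFD3min and MEFD3plu) and 3920 ± 42.0 and 2622 ± 12.4 at day 5 (MEFD5min and MEFD5plu). From day 3 to day 5 all 28 G2/M genes rose in untreated and in treated cells, and 26 and 24 of the 27 S phase genes did (edgeR, adjusted p under 0.05). The return was partial, with medians of 78.4% (G2/M) and 69.7% (S phase) of the MEFD0 mean in MEFD5min and of 54.1% and 41.1% in MEFD5plu. Contractile genes of the smooth muscle type were at least 4 times lower for 7 of 11 genes in MEFD3plu and for 0 in either day 5 group.

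All 13 genes are protein coding, as are 97.0% of all genes with at least 5 CPM, and they lie on 8 chromosomes, with at most 3 on one. Their nearest expressed neighbours on either side, 26 genes, included 0 that were at least 4 times lower in all later groups (0.128% of all genes), and 6 (23.1%) that were so in at least 1 group, against 7.24% of all genes (the difference was not tested). These 6 were S100a6, Sele, Slc19a2, Serpinb2, Ramp3 and Klf8, of which S100a6, Sele and Serpinb2 are also relatives of their neighbour. S100a4 shares 302 of its 584 exon bases with Gm42674 on the same strand, a gene model with no counts in any sample, and 47.4% of its 50-base stretches occur in another gene. Whether reads in this overlap were counted for S100a4 is not known. Selp has 14.1% of its exon bases opposite the antisense models Gm16548 and Gm16587, both under 0.6 CPM in each group. The other overlaps reach 3.15% of exon bases or less. Per kilobase of exon the median of the 13 genes in MEFD0 was 6.75 CPM, against 9.22 for all genes with at least 5 CPM.

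Promoter sequences (RefSeq, GRCm38.p6, from 250 bases before to 50 bases after the start) could be matched for 11 of the 13 genes, with 14 promoters, and were compared with 10228 promoters of 7989 genes with at least 5 CPM in MEFD0. None of the 9 motifs was in all 14 promoters. The AP-1 site TGACTCA was in 1 of 14 promoters (7.14% against 3.52%), the cAMP element TGACGTCA in 0 (against 3.23%), the TEAD site GGAATG in 2 (14.3% against 11.7%), the CArG box of SRF in 0 (against 1.26%) and TATAAA, the TATA box sequence, in 2 (14.3% against 6.63%). CCAAT was in 6 promoters (42.9% against 38.5%), the E-box CACGTG in 2 (14.3% against 10.4%), TTTGAA in 1 (7.14% against 11.8%) and the GC box GGGCGG in 9 (64.3% against 65.4%).

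The promoters of 5 genes with a TATA, AP-1 or TEAD match gave the stretches that follow, read on the gene's strand, with the match in capitals (in the reverse orientation for Serpinb8, Chst1 and Inka2) and up to 30 bases on either side (RefSeq, GRCm38.p6). They lie at chr3:90603709-90603769 (plus) for S100a4, chr3:105704359-105704424 (plus) for Inka2, chr1:107589953-107590005 (plus) for Serpinb8, chr1:87573872-87573937 (minus) for Ngef and chr2:92600907-92600972 (plus) for Chst1. The TATAAA match of S100a4 lies 31 bases before the start, where a TATA box is usual. The match of Inka2 lies 210 bases before the start and in reverse, so neither its place nor its orientation is that of a TATA box.
S100a4: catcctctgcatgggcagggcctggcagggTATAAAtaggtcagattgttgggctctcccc
Inka2: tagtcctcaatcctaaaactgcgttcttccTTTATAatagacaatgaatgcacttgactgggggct
Serpinb8: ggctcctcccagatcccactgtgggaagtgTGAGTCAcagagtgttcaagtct
Ngef: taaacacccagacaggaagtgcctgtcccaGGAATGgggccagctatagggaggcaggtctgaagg
Chst1: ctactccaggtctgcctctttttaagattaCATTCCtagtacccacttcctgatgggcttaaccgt

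The limit of the rule divides genes with nearly equal ratios. Just inside were Sytl2, whose smallest ratio of MEFD0 to a later group was 4.006, Serpinb8 with 4.015 and S100a4 with 4.91. Just outside were Svip, an inhibitor of protein degradation at the endoplasmic reticulum, with 3.98 (164 ± 10.4 CPM in MEFD0 and 41.1 ± 5.54 in MEFD5min), the BMP antagonist Grem1 with 3.94 (394 ± 11.4 and 99.8 ± 24.5 CPM in the same groups) and the membrane glycoprotein gene Gpnmb with 3.90 (761 ± 89.5 CPM in MEFD0 and 195 ± 28.6 in MEFD3min).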

How the data were processed

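The authors aligned reads to GRCm38/mm10 (TopHat2 2.1.0 and HTSeq among the tools they list) and deposited raw counts per Ensembl gene, used here without pooling. The strand setting of the counting is not given. The sample labels name an unstranded TruSeq RNA kit and the paper a stranded TruSeq mRNA kit. Whether antisense reads were counted for Selp and Ngef is therefore not known. CPM are counts divided by the sample's total, as means of 3 samples with SD. In R 4.3.3, edgeR 4.0.16 (filterByExpr, TMM, glmQLFit and glmQLFTest on all 15 samples) tested 15997 genes, with Benjamini-Hochberg adjustment and a threshold of 0.05. The interaction is the treatment log2 fold change at day 3 minus that at day 5. MEFD0 was compared without a test. Replicate numbers paired MEFD3plu/MEFD3min, with correlations of residuals of 0.143, 0.228 and 0.360, and in no other comparison were all 3 that high. Named genes are the 10 members highest in MEFD0, members in lists, the 4 highest and lowest called log2 fold changes of each treatment comparison, the 3 genes nearest the limit on either side and the 4 members with least left. Members and lists were chosen with earlier results of these data known, and families after the members were known. Alternatives were DESeq2 1.42.0, other scalings, filters and thresholds, a replicate block, a fit of the compared samples alone and each sample left out. Positions come from GENCODE M21 (Python 3.11.15). The code was tested on simulated data.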

Additional observations from a re-analysis of the deposited data

Results flagged for a closer look

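The drugs were present at day 3 and had been withdrawn by day 5. The treatment effect differed between these days for 7 of the 13 genes, by a test of the difference itself (edgeR, log2 fold change at day 3 minus that at day 5, adjusted p under 0.05). This count, 23.1% of the 13 higher and 30.8% lower, is near the shares of all genes, 22.6% and 25.8%. With total counts alone 4736 of 15997 genes were higher and 3220 lower, against 3622 and 4132 with TMM. The 13 genes then gave 3 higher and 3 lower. For S100a4 the difference was -3.46 ± 0.320 (SE, adjusted p = 1.97e-07, range over the alternatives 6.89e-78 to 1.74e-06), from lower in 3 of 3 treated samples at day 3 to higher in 3 of 3 at day 5. Nav2 had 3.38 ± 0.347 (adjusted p = 6.63e-07, range 2.28e-48 to 5.17e-06) and Inka2 2.11 ± 0.476 (adjusted p = 0.00147, range 4.22e-07 to 0.00494). Both were higher in 3 of 3 treated samples at day 3 and lower in 3 of 3 at day 5. These 3 of the 13 genes changed direction with both days called.

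For the other 4 genes the size of the effect differed. Rragb had -1.21 ± 0.278 (adjusted p = 0.00177, range 0.000184 to 0.0089) and was lower in 3 of 3 treated samples at both days, more so at day 3. Pcolce2 had 0.91 ± 0.289 (adjusted p = 0.015, range 0.00421 to 0.0528) and was lower in 3 of 3 samples at both days, more so at day 5. It missed the threshold without MEFD3plu replicate 4, where the value was 0.81 (adjusted p = 0.0528). Serpinb8 had -0.91 ± 0.215 (adjusted p = 0.00208, range 6.11e-05 to 0.00953), with a treatment effect called at day 5, where 3 of 3 treated samples were higher. Adcy1 had -0.82 ± 0.320 (adjusted p = 0.0444, range 0.00551 to 0.138), with lower values in 3 of 3 treated samples at day 3, and passed in 7 of 23 alternatives.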

How the results depend on the processing

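The number of genes selected by the rule depended on its limits. It was 5 with the lowest MEFD0 sample against the highest later sample, 24 with a minimum of 2 CPM, 33 with a ratio of 3, 2 with a ratio of 8, 17 with medians and 11 with TMM or DESeq2 size factors. With one sample left out it lay between 12 and 19, the highest without MEFD5min replicate 3.

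Of the treatment and day comparisons, a required change of at least 2-fold gave 7 called genes for MEFD3plu/MEFD3min (11 without it), 4 for MEFD5plu/MEFD5min (10), 3 for MEFD5min/MEFD3min (6) and 4 for the interaction (7), and an adjusted p under 0.01 gave 3 for MEFD5min/MEFD3min. The fit of the compared samples alone gave 4 there, and the replicate block 8. The level left in MEFD5plu, median percent over members, was 8.642% without MEFD5plu replicate 1, in a range of 6.885% to 8.642% with each sample left out. It was 8.305% with TMM, an alternative chosen after seeing the data.

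Of 519 values under other settings, 465 kept their direction and side of the threshold, 36 lost a call, 15 gained one and 3 reversed. Of 975 values with one sample left out, the numbers were 914, 27, 14 and 20. No reversed value was called in either setting. With total counts alone, Megf10 was at -0.041 for MEFD5plu/MEFD5min and Serpinb8 at 0.095 for MEFD5min/MEFD3min, and with no filter Selp was at -0.031 for MEFD5min/MEFD3min. The cause was not tested.

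With one sample left out, the log2 fold changes that reversed had these ranges. Serpinb8 lay between -0.377 and 0.008 for MEFD3plu/MEFD3min, and Megf10 between -0.026 and 0.328 for MEFD5plu/MEFD5min. For MEFD5min/MEFD3min, Selp lay between -0.177 and 0.168, Serpinb8 between -0.183 and 0.202, Rragb between -0.067 and 0.203 and Megf10 between -0.205 and 0.533. For MEFD5plu/MEFD3plu, Chst1 lay between -0.276 and 0.116, Selp between -0.000 and 0.395 and Adcy1 between -0.08 and 0.288. For the interaction, Selp lay between -0.396 and 0.012 and Sytl2 between -0.018 and 0.165.

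With total counts alone the median of all genes for the interaction moved from -0.033 to 0.149. Replicate numbers as a block gave 12, 11, 8, 7 and 7 called genes in the order MEFD3plu/MEFD3min, MEFD5plu/MEFD5min, MEFD5min/MEFD3min, MEFD5plu/MEFD3plu and interaction. Depth limits Ngef most, with 5 to 15 counts per treated sample.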

Other observations

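With a ratio of 3 in place of 4, 20 further genes met the rule, and 6 of them, picked after their values were seen, widen the range of functions. Wnt10b encodes a ligand that holds back adipogenesis and was at 16.6 ± 1.13 CPM (SD, n = 3) in MEFD0, 4.92 ± 0.930 and 5.44 ± 0.550 in MEFD3min and MEFD5min, and 0.753 ± 0.109 and 2.11 ± 0.362 in MEFD3plu and MEFD5plu. Prkcb, a calcium-dependent protein kinase C, was at 33.5 ± 0.829 CPM in MEFD0, 9.67 ± 0.796 in MEFD5min and 1.10 ± 0.106 in MEFD5plu. The water channel Aqp1 was at 10.5 ± 0.464 CPM in MEFD0 and 2.70 ± 0.313 or less later. Npnt, a matrix ligand of integrins, was at 18.4 ± 2.05 CPM in MEFD0 and 0.690 ± 0.0308 in MEFD3min, with its highest later level, 5.87 ± 2.38, in MEFD5min. Nqo1, a quinone reductase, was at 23.5 ± 1.63 CPM in MEFD0 and 7.69 ± 0.506 or less later. Smoc2, a calcium-binding matrix protein, was at 134 ± 7.84 CPM in MEFD0 and 44.2 ± 4.47 in MEFD3plu, and lower at day 5, at 13.9 ± 2.09 in MEFD5min and 14.9 ± 1.03 in MEFD5plu.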
